A study of Homo sapiens with 4 samples.

Results

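The 10 genes described here belong to the insulin-like growth factor (IGF) axis: the ligand IGF1, the receptors IGF1R and IGF2R, the binding proteins IGFBP2 to IGFBP7, and the protease PAPPA. They were named as a list with earlier results of these data in view, so their values are given as a description and no test is attached to them. All 10 of the 10 had at least 1 probe set assigned to that gene alone, among 19775 genes represented on the array. All 10 also passed the filter on low values, which 14926 genes passed.

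In this axis, IGF1 binds the tyrosine kinase receptor IGF1R at the cell surface and signals through adaptor proteins to the PI3K-AKT and ERK pathways. IGF2R has no kinase domain: it removes IGF2 from the surface and carries enzymes tagged with mannose 6-phosphate to lysosomes. Binding proteins hold IGFs in the extracellular space, where they lengthen their life or keep them from the receptor, and proteases such as PAPPA release the ligand by cutting its binding protein. In the testis, IGF1 is known as a local growth signal among Sertoli, Leydig and germ cells.

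RNA was measured on 1 single-colour oligonucleotide array for each of 4 established human germ cell tumour lines, a seminoma (TCam-2), a teratoma (NT2D1), an embryonal carcinoma (GCT27) and a yolk sac tumour (GCT44). The labels place the NT2D1 tumour in a lung metastasis and describe the other 3 only as testicular germ cell tumours. All lines were untreated and grown with serum and antibiotics, TCam-2 in RPMI-1640 and the others in Dulbecco's medium, so for TCam-2 the medium and the subtype cannot be told apart. Each subtype is 1 line and each line 1 array, so no value below has a replicate error, no difference has a replicate check, and precision is limited by how few arrays there are.

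Intensities are on a linear scale in array units. The median of all values, 76.4 units, served as a floor below which levels were not ordered, and a fold against a value below it is written as "at least". A gap between lines was called when it reached 4-fold (2 on the log2 scale), which is a rule of size with no error rate. Median intensities lay between 73.6 and 79.3 on the 4 arrays, and the spiked-in controls deviated from their mean over the arrays by 0.29 on GCT44 and by -0.26 on GCT27 (log2). The ACTB 3'/5' ratio was 4.21 for GCT44 and 2.49 to 2.97 for the others. The lines largely carried the markers of their labels. Of 6 seminoma markers 4 were higher in TCam-2, and of 6 yolk sac markers 4 were higher in GCT44. Of 4 embryonal carcinoma markers measured, SOX2 and GDF3 were above the other lines in both NT2D1 and GCT27. The line labelled teratoma thus resembled the embryonal carcinoma line in these 2 markers. NANOG met the 4-fold rule only as lower in GCT44, and DNMT3B had no 4-fold gap. The stem cell factor receptor gene KIT did not separate the lines, with 1144 units in TCam-2 against 1160 to 1771 in the others.

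Of the 10 genes, 6 had a gap of at least 4-fold between neighbours in the order of the lines, where 8.71% of the 14926 genes did. These were IGF1, IGFBP2, IGFBP3, IGFBP5, IGFBP6 and PAPPA, while IGF1R, IGF2R, IGFBP4 and IGFBP7 had none. The 6 fell into 5 different patterns, and only IGF1 and IGFBP3 shared one. The median fold between the highest and the lowest line was 16.5 over the 10 genes and 2.12 over all genes compared, as floored values. Since the list was drawn up with these levels known, neither contrast supports a statement about the axis as such.

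**Figure D1:**
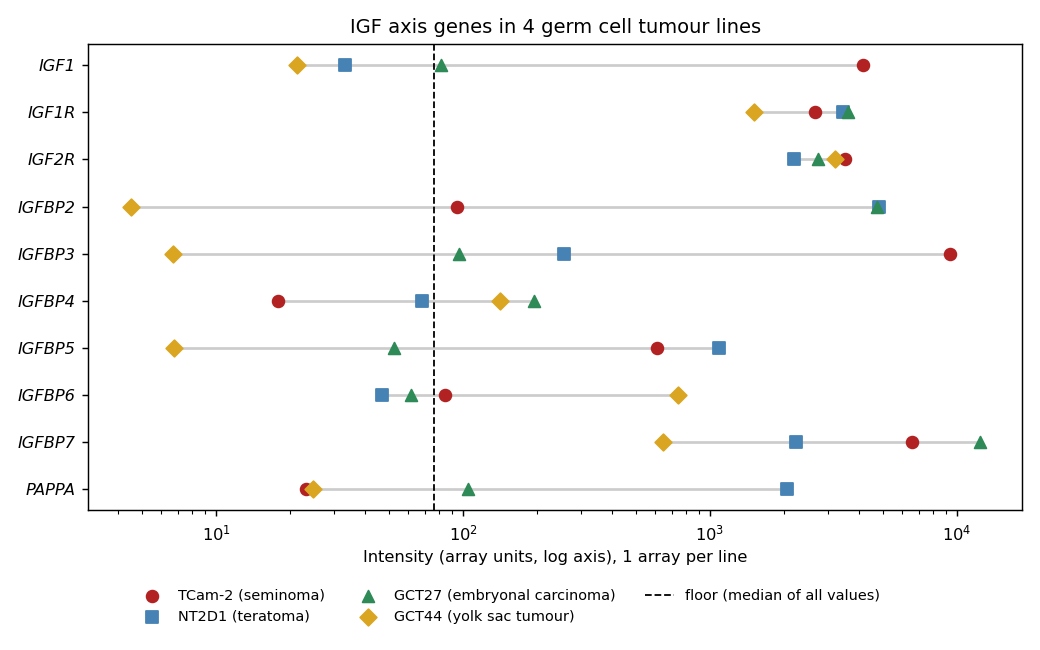
Intensity of each IGF axis gene (rows) in the 4 lines (symbols) on a log axis, 1 array per line, with the floor of 76.4 units as a dashed line and a grey bar from the lowest to the highest line. IGF1 and IGFBP3 peak in TCam-2, PAPPA in NT2D1 and IGFBP6 in GCT44, while the 4 symbols of IGF1R and of IGF2R lie close together.

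To show how different the starts of the line-restricted genes are, the 250 bases before the RefSeq transcription start are printed for 4 of them, read 5' to 3' on the gene's strand from build GRCh38.p14, with every CG dinucleotide in capitals because the study concerns methylation of such sites. The methylation arrays are not used here. IGF1 and IGFBP3 are shown because both peaked in TCam-2, IGFBP2 because it was high in 2 lines, and PAPPA because it was high in NT2D1. The windows are chr12:102478551-102478800 on the minus strand for IGF1, chr7:45921273-45921522 on the minus strand for IGFBP3, chr2:216633170-216633419 on the plus strand for IGFBP2, and chr9:116153541-116153790 on the plus strand for PAPPA.
IGF1: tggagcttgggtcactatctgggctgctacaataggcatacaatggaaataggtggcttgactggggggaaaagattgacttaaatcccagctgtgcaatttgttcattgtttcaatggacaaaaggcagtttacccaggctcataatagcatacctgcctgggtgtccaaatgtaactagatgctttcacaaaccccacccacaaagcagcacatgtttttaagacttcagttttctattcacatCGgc
IGFBP3: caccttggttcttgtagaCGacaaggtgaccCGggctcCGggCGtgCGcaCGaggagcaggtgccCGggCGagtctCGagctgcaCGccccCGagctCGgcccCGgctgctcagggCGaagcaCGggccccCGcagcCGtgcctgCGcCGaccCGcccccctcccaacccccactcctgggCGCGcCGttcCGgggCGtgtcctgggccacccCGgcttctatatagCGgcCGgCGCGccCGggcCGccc
IGFBP2: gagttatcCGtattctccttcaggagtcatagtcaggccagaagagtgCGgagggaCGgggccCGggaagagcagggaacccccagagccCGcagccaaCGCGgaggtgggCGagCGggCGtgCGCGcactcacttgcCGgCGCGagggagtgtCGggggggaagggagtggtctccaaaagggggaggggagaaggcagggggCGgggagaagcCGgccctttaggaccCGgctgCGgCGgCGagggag
PAPPA: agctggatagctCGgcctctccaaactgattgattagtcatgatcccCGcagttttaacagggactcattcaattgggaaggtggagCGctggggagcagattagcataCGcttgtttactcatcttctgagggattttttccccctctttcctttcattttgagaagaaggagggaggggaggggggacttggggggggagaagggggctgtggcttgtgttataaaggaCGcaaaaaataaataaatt

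The window of IGF1 held 1 CG and its other annotated window 0, against 32 in IGFBP3, 22 in the IGFBP2 window shown and 5 in PAPPA. The other annotated windows of IGFBP2 held 7 and 4. The median over 35114 windows of the same length was 11. The 2 genes that peaked in TCam-2 thus start in windows from opposite ends of that distribution, 14.7% of all windows holding at most 1 CG and 91.9% at most 32. Of the 10 genes 9 had a window in the table, with 12 windows in all. Of the 9 genes, 5 (IGF1R, IGF2R, IGFBP2, IGFBP3 and IGFBP4) had at least 1 window with an observed-over-expected CG ratio of at least 0.6. IGFBP2 reached it only in the window shown (0.81), with 0.36 and 0.21 in its other windows. Among all windows 47.5% reached that ratio, a share of single windows and not of genes, so it is not a like background. Searched on both strands, the letters GGGCGG, the GC box, occurred 2 times before IGFBP3 and IGF1R, 6 times before IGF2R, and once before IGFBP4, before IGFBP6 and in 2 of the 3 windows of IGFBP2. They were found in 42.6% of all windows. The letters TATAAA, the TATA box, occurred before IGFBP4 and PAPPA and in 10.7% of windows. The palindrome GCCNNNGGC, bound by AP-2 factors, occurred before IGF1R, IGFBP5 and IGFBP6 and in 19.8% of windows, and was in no window of IGF1 or IGFBP3. These are matches of letters only.

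IGF1, the circulating and local growth factor that activates IGF1R, had 4184 units in TCam-2, against 81.0 in GCT27, 33.2 in NT2D1 and 21.3 in GCT44. Only TCam-2 was well above the floor, with a level 51.6-fold that of GCT27, and NT2D1 and GCT44 lay below the floor. The gap was 5.69 on the log2 scale. IGF1 and IGFBP3 were the members higher in TCam-2, 2 of 10, and 1.49% of all genes were called in that direction. No member was lower there, against 0.744% of all genes.

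The IGF1 signal was carried by most of its probe sets. Of 5 single-gene probe sets, 4 met the size rule in TCam-2, with 4184, 6031, 6997 and 6354 units there. On the 3 of these not used for the gene, all other lines lay below the floor, and TCam-2 was at least 78.9-, 91.6- and 83.1-fold higher. The remaining probe set was below the floor in all lines, at 4.65 to 23.5 units.

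IGF1R, the receptor kinase for IGF1 and IGF2, had 3625 units in GCT27, 3446 in NT2D1, 2663 in TCam-2 and 1510 in GCT44. It was well above the floor in every line, its widest gap was the 1.76-fold between TCam-2 and GCT44, and the whole range was 2.40-fold. The line with high IGF1 therefore did not hold the highest IGF1R level. GCT44 was the lowest of the 4 on all 3 IGF1R probe sets above the floor, with 1510, 261 and 443 units, while the top place passed between GCT27 and NT2D1. Those 2 lines differed by 1.05-fold on the probe set used and are not ordered here.

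IGF2R, the scavenger of IGF2 and sorting receptor for lysosomal enzymes, had 3529 units in TCam-2, 3200 in GCT44, 2725 in GCT27 and 2179 in NT2D1. The range was 1.62-fold, the narrowest of the 10 genes. NT2D1 was the lowest line on all 3 probe sets, and the order of the other 3 lines changed between probe sets, so they are not ordered here.

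**Figure D2:**
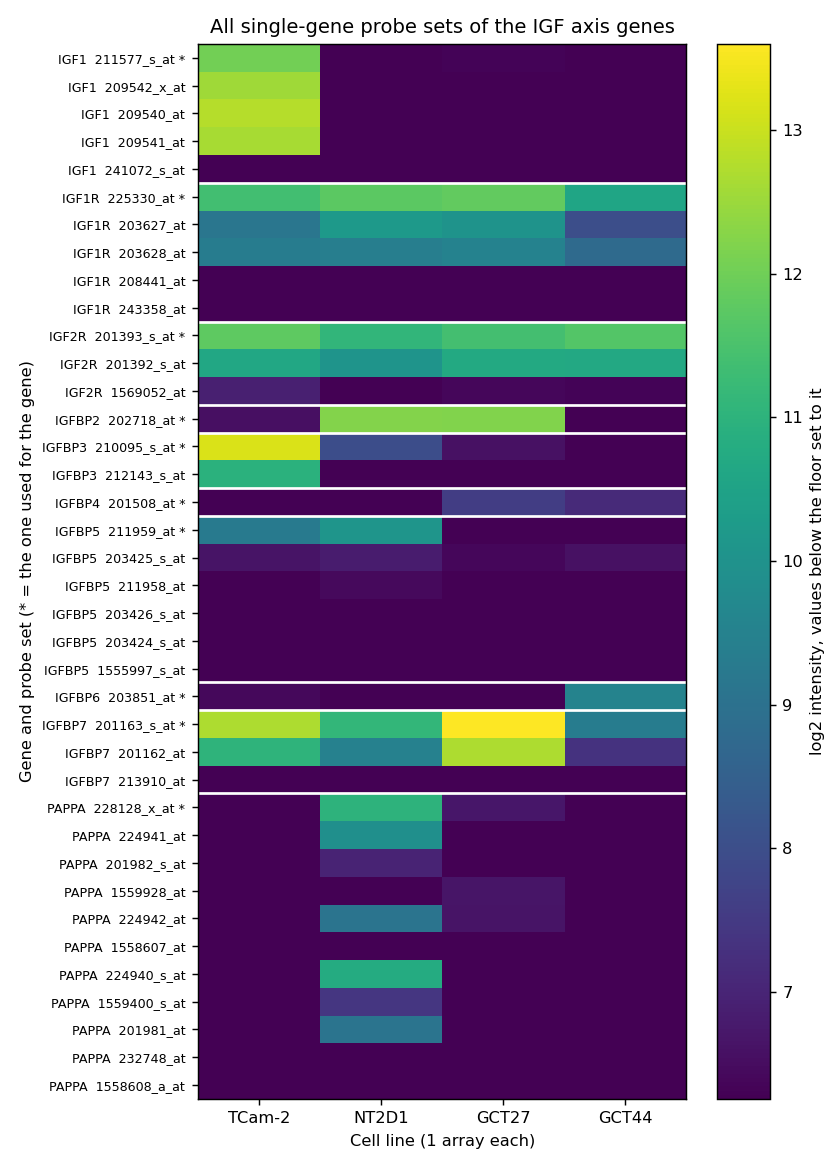
Log2 intensity, with values below the floor set to it, of all 38 single-gene probe sets of the 10 genes (rows, grouped by gene, the one used marked with a star) in the 4 lines (columns). Of the 38, 9 never rose above the floor, and several probe sets of IGF1 and of PAPPA show the same line as high.

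IGFBP3, the main carrier of IGFs in serum and a growth inhibitor in many cells, had 9385 units in TCam-2, with NT2D1 next at 256, GCT27 at 96.4 and GCT44 below the floor at 6.70. TCam-2 was 36.6-fold above NT2D1 and at least 123-fold above GCT44. Its other probe set gave 1980 units in TCam-2 and values of 8.52 to 12.5, all below the floor, in the other lines, at least 25.9-fold. The order of NT2D1 and GCT27 thus rests on 1 probe set, while the peak in TCam-2 is on both.

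IGFBP2, a binding protein abundant in fetal tissues, had 4855 units in NT2D1 and 4735 in GCT27, against 94.7 in TCam-2 and 4.51 in GCT44. The pair of lines that carried SOX2 stood 50.0-fold above the next line, TCam-2, and 1.03-fold apart from each other. GCT44 lay below the floor. It was the only member of 10 with NT2D1 and GCT27 above the other 2 lines, a pattern of 0.703% of all genes. IGFBP2 has 1 single-gene probe set, so no second one could be compared.

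IGFBP5, a binding protein that attaches to extracellular matrix, had 1084 units in NT2D1 and 608 in TCam-2, against 52.3 in GCT27 and 6.78 in GCT44, both below the floor. NT2D1 and TCam-2 were at least 7.96-fold above the other lines and 1.78-fold apart. Of all genes 0.188% had TCam-2 and NT2D1 above the rest, and IGFBP5 was the 1 member of 10. This pattern was on 1 of 6 probe sets. The other 5 never exceeded 114 units in any line, and on 3 of them all lines were below the floor. With the median over its probe sets the gap was 0.00, so the call rests on that 1 probe set, and with the floor at the 70th percentile of all values (252 units) it was 1.27, short of the rule.

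IGFBP6, which prefers IGF2 over IGF1, had 743 units in GCT44, against 84.5 in TCam-2, 61.7 in GCT27 and 47.0 in NT2D1. GCT44 was 8.79-fold above TCam-2, and the other 2 lines lay below the floor. It was the only member of 10 higher in GCT44, where 1.7% of all genes were called. The gene has 1 single-gene probe set, and with the floor at the 70th percentile the gap came to 1.56 (log2) and no longer met the rule.

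IGFBP7, a related secreted protein with low affinity for IGFs, had 12398 units in GCT27, 6569 in TCam-2, 2239 in NT2D1 and 647 in GCT44. All 4 lines were above the floor, and they were spread over 19.2-fold in steps of 1.89-, 2.93- and 3.46-fold. No step reached the rule. The second informative probe set gave the same order with 6624, 2104, 721 and 160 units. There GCT44 was 4.51-fold below NT2D1, just past the rule, and 3.46-fold on the probe set used lies just short of it. None of the 10 members was called lower in GCT44, where 1.69% of all genes were, and IGFBP7 would be called there with the median over probe sets (a gap of 2.17, log2) or with arrays scaled to the spiked-in controls (2.11).

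IGFBP4, an inhibitor of IGF action and the classical substrate of PAPPA, was dim everywhere. It had 193 units in GCT27 and 141 in GCT44, against 68.1 in NT2D1 and 17.7 in TCam-2, both below the floor. Its highest level was at least 2.53-fold above the lowest, and no gap met the rule on its 1 probe set.

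PAPPA, the metalloprotease that cleaves IGFBP4 and frees IGFs near the cell, had 2052 units in NT2D1, against 105 in GCT27, 24.7 in GCT44 and 23.1 in TCam-2. NT2D1 stood 19.6-fold above GCT27, and the last 2 lines were below the floor. It was the 1 member of 10 higher in NT2D1, where 0.523% of all genes were called. Of its 11 probe sets, 9 rose above the floor in some line and 5 met the rule, each with NT2D1 on top. These 5 had 2052, 1749, 962, 543 and 542 units in NT2D1. The other 6 had at most 170 units in any line, and the median over all 11 gave a gap of 1.16, short of the rule. PAPPA was thus measured high in a line where IGFBP4 lay below the floor. Other binding proteins were well above it there, with IGFBP2 at 4855 units and IGFBP5 at 1084 on the probe sets used. Whether PAPPA acts on any of them in NT2D1 was not tested.

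No member was higher in GCT27, against 0.603% of all genes, and none was lower in NT2D1 or GCT27, against 0.241% and 0.322%.

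**Figure D3:**
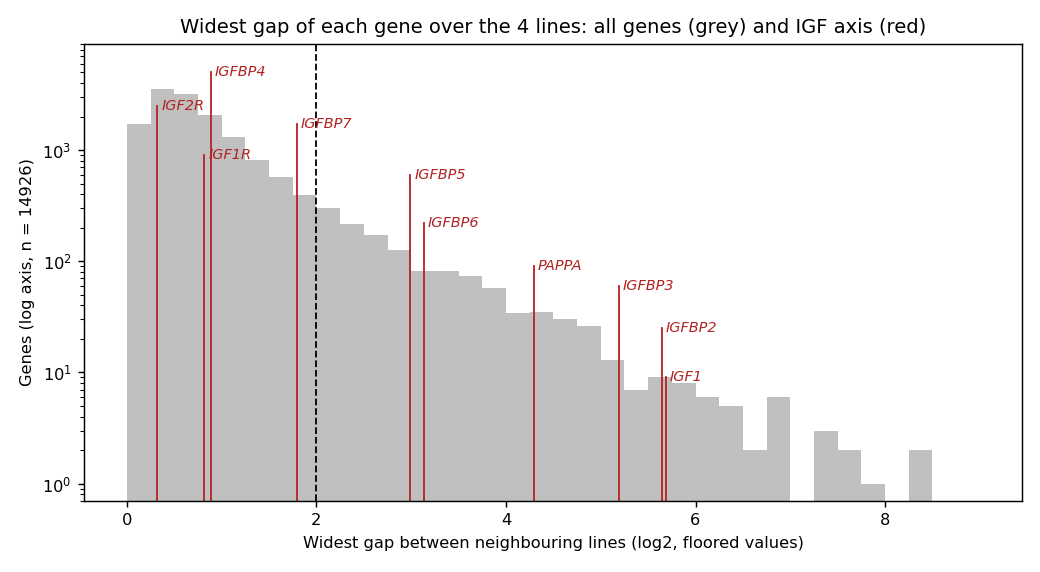
Number of genes (log axis) by the widest gap between neighbouring lines on floored log2 values, for the 14926 genes compared (grey), with the 10 IGF axis genes marked by red lines whose height carries no value. The dashed line is the size rule at 2, which 6 of the 10 pass, and IGFBP7 lies just short of it at 1.79.

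Set side by side, the lines offered different members of the axis. TCam-2 had ligand, both receptors, IGFBP3, IGFBP5 and IGFBP7 at 608 units or more, with IGFBP4 and PAPPA below the floor. NT2D1 had both receptors, IGFBP2, IGFBP5, IGFBP7 and PAPPA at 1084 units or more, without IGF1. GCT27 had both receptors, IGFBP2 and IGFBP7 at 2725 units or more, and its IGF1 was 81.0 units. GCT44 had the fewest members above the floor, 5 of 10, against 8 in TCam-2, 7 in NT2D1 and 8 in GCT27. Over all probe sets, 49.7% lay above the floor in GCT44, 49.2% in TCam-2, 50.3% in NT2D1 and 50.9% in GCT27. The average of these shares is fixed because the floor is the median of all values. They also involve no filter and no choice of probe set, so they are not a like background for the member counts. The share over the genes compared was not computed. Levels in GCT44 were the lowest of the 4 lines for IGF1R and IGFBP7. For IGFBP2 and IGFBP3 only GCT44 was below the floor on the probe sets used. The next lines were just above it, however, TCam-2 at 94.7 units for IGFBP2 and GCT27 at 96.4 for IGFBP3. On the other IGFBP3 probe set NT2D1, GCT27 and GCT44 were all below the floor and are not ordered. IGF1, IGFBP5 and PAPPA lay below the floor in GCT44, on the probe sets used, together with 1 other line each. Another IGFBP5 probe set had 96.7 units in GCT44 and 83.5 in GCT27, just above the floor. Taken as each line minus the average of the remaining 3 on the log2 scale, the median over the 10 genes was 0.20 for TCam-2, -0.60 for NT2D1, -0.61 for GCT27 and -1.84 for GCT44, where the medians over all genes lay between -0.06 and -0.02. From bulk RNA, fewer cells with a transcript and less of it per cell cannot be told apart.

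Pairs of lines were compared by the same 4-fold rule. TCam-2 against GCT44 separated the most members, and also the most of all genes compared. IGF1, IGFBP3, IGFBP5 and IGFBP7 were higher in TCam-2, 4 of 10 against 5.7% of all genes, and IGFBP6 was lower, 1 of 10 against 4.38%. NT2D1 against GCT27, the lines with high SOX2, differed in 3 members. IGFBP5 (at least 14.2-fold) and PAPPA (19.6-fold) were higher in NT2D1, against 2.09% of all genes, and IGFBP7 was lower in NT2D1, at 2239 units against 12398 in GCT27 and against 2.58% of all genes.

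For each of the 6 genes with a gap, the 3 genes with the closest pattern were found by Euclidean distance over 4 lines, on floored log2 values after subtracting each gene's mean. With so few lines many genes have like patterns. Where all lines but 1 lie at or near the floor, as for IGF1 and IGFBP6, the distance depends mostly on the level in that 1 line. Nearest to IGF1 were SOX17 (distance 0.11), the hormone subunit gene CGA (0.17) and the RNA gene UCA1 (0.24), all high in TCam-2 alone. Nearest to IGFBP3 were the chemokine receptor gene CXCR4 (0.85), SOSTDC1 (0.89) and KANK4 (1.14). IGFBP2 was closest to DPYSL3 (0.47), SYTL2 (0.61) and VAT1L (0.99), and IGFBP5 to RGS16 (0.26), B3GALNT1 (0.34) and LINC00622 (0.67). IGFBP6 was closest to the histone gene H2AC8 (0.08), MYL7 (0.12) and CPN1 (0.13), and PAPPA to MYH6 (0.39), PIWIL2 (0.52) and RARRES2 (0.75).

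Further genes of the pathway were taken from 8 lists of 85 entries in all. Of these, 80 had a single-gene probe set and 67 passed the filter. A gap of at least 4-fold was found for 9 of 67 (13.4%), against 8.71% of all genes. In TCam-2 3 of 67 were lower and 0 higher, against 0.744% and 1.49% of all genes. In GCT44 1 was higher and 1 lower, against 1.7% and 1.69%. In GCT27 1 was higher, against 0.603%. In NT2D1 none was called, against 0.523% of all genes higher and 0.241% lower. The remaining 3 separated the lines into pairs. Counts per list below are of any 4-fold gap and stand beside the same 8.71% of all genes.

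**Figure D4:**
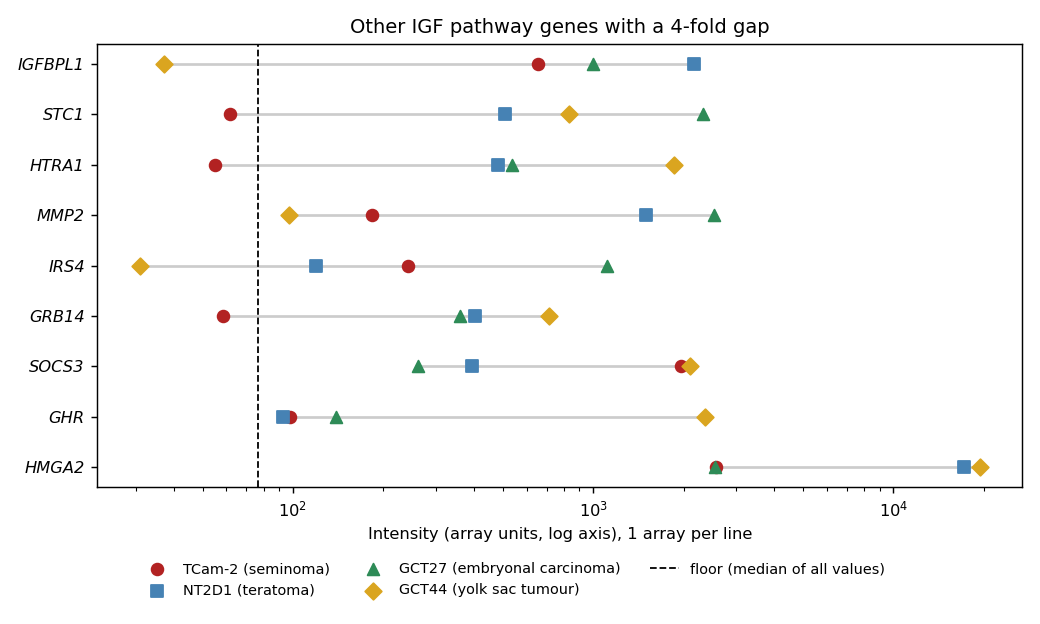
Intensity of the 9 other pathway genes with a 4-fold gap (rows) in the 4 lines (symbols) on a log axis, 1 array per line, with the floor of 76.4 units dashed. STC1, HTRA1 and GRB14 are lowest in TCam-2, where they lie below the floor, and GHR is high in GCT44 alone.

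Among 10 entries for other ligands, receptors and binding proteins, 4 were compared and 1 met the rule. IGFBPL1, a protein with an IGFBP-like domain, had 37.2 units, below the floor, in GCT44, against 2174 in NT2D1, 997 in GCT27 and 656 in TCam-2, at least 8.58-fold lower. With the floor at the 70th percentile its gap was 1.38, short of the rule. INSR, the insulin receptor, which can pair with IGF1R, had 2239 units in GCT44, against 1307 in TCam-2, 779 in GCT27 and 625 in NT2D1. GCT44 thus had the highest INSR and the lowest IGF1R level, each short of the rule. IGFBP1, a binding protein made mainly by liver and decidua, was below the floor in all lines, at 8.28 to 58.5 units. IGF2 had no probe set assigned to it alone and was not analysed here.

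Of 13 proteases and inhibitors that act on binding proteins, 10 were compared and 3 met the rule. STC1, a stanniocalcin that inhibits PAPPA, had 61.5 units, below the floor, in TCam-2, against 2327 in GCT27, 831 in GCT44 and 508 in NT2D1, at least 6.64-fold lower. HTRA1, a serine protease that can cut IGFBP5, had 55.1 units in TCam-2, also below the floor, against 1866 in GCT44, 536 in GCT27 and 481 in NT2D1, at least 6.29-fold lower. MMP2, a gelatinase that can cut binding proteins, had 2518 units in GCT27 and 1500 in NT2D1, against 184 in TCam-2 and 97.3 in GCT44. The pairs were 8.15-fold apart, a split found in 0.703% of all genes. With the median over its probe sets MMP2 did not reach the floor in any line, so no gap could be computed there. With the floor at the 70th percentile the gaps of STC1 (1.01) and HTRA1 (0.93) fell short of the rule.

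Of 26 receptor adaptors and PI3K-AKT genes, 22 were compared and 3 met the rule. IRS4, an insulin receptor substrate, had 1115 units in GCT27, against 242 in TCam-2, 119 in NT2D1 and 30.8, below the floor, in GCT44, a margin of 4.60-fold. GRB14, an inhibitor of insulin receptor signalling, had 58.4 units, below the floor, in TCam-2, against 360 to 713 in the others, at least 4.71-fold lower, and its gap was 0.51 with the floor at the 70th percentile. SOCS3, a feedback inhibitor of cytokine signalling, had 2097 units in GCT44 and 1965 in TCam-2, against 396 in NT2D1 and 260 in GCT27, 4.97-fold between the pairs, a split found in 0.268% of all genes. With the median over its probe sets that gap was 0.49. The substrates IRS1 (510 to 1955 units) and IRS2 (1803 to 4758) were present in all lines and did not meet the rule.

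GHR, the growth hormone receptor through which IGF1 is induced in liver, was the 1 of 7 growth hormone axis genes with a gap. It had 2359 units in GCT44, against 139 in GCT27, 97.7 in TCam-2 and 92.9 in NT2D1, a 17.0-fold margin. TCam-2, the line with high IGF1, was thus near the floor for GHR. All 7 genes for IGF2 mRNA-binding proteins and related RNA regulators were above the floor in every line. IGF2BP1 had 617 to 1123 units, IGF2BP2 3087 to 10259 and IGF2BP3 5177 to 10450, none with a 4-fold gap. HMGA2, a chromatin protein that promotes IGF2BP2, had 19498 units in GCT44 and 17148 in NT2D1, against 2567 in TCam-2 and 2549 in GCT27, 6.68-fold between the pairs, a split found in 0.228% of all genes. With the median over its probe sets the gap was 0.55, and without _s_at and _x_at probe sets 0.78, both short of the rule. None of 8 genes of mannose 6-phosphate sorting, 6 cell-surface partners or 3 CCN genes compared met the rule.

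Since IGFs and their binding proteins are products of fibroblasts in many tissues, stromal markers were read beside them. The summed level of 9 stromal markers was 14597 units in TCam-2, with the other lines at 8937 (NT2D1), 8476 (GCT44) and 8190 (GCT27). Above the floor lay 6 of the 9 in TCam-2, 7 in NT2D1, 4 in GCT44 and 6 in GCT27. The TCam-2 sum was carried by COL1A2 and LUM, and the median over the 9 of a line minus the average of the remaining lines was -0.12 (log2) in TCam-2 and 0.62 in NT2D1. COL3A1 (11.0-fold) and LUM (13.9-fold) were higher in TCam-2, as IGF1 and IGFBP3 were, and COL1A1 was 5.03-fold lower there. COL1A2 had 9210 units in TCam-2, 2600 in GCT44, 1345 in GCT27 and 61.1 in NT2D1. Of the others, THY1 had 124 units in TCam-2, against 2334 in GCT27, 1668 in NT2D1 and 30.2 in GCT44, and PDGFRA (19.7 units) and POSTN (54.1 units) were below the floor in TCam-2. DCN, a defining fibroblast gene, lay near the floor in all lines at 69.3 to 95.6 units, and PDGFRB had 52.8 to 200.1 units. The part of stromal expression in the IGF1 and IGFBP3 levels was not tested. Of 5 blood cell markers measured, the pan-leukocyte gene PTPRC was below the floor in every line at 19.2 to 59.6 units, and CD3D alone met the rule, with 2803 units in GCT44.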

How the data were processed

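Total RNA of 4 lines was hybridized to 1 array of 54675 probe sets each. The deposited values are intensity values, 1 per probe set and line, and RMA is the tool listed, with no version, per the submitters' processing notes. RMA usually gives log2 values, but these are linear with a highest value of 41955 to 55282, so log2 was taken here. The arrays also differ in median, 73.6 to 79.3 units, and whether RMA gave the deposited values cannot be told from the sources used here. Background steps are not given in the sources used here.

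Probe sets were named from the platform annotation, with symbols updated by gene ID. Of them 41097 had 1 gene, 1801 several and 11777 were not listed. Each gene took the probe set with the highest mean log2 value. Genes whose highest value reached the floor of 76.4 units were compared. No test was run, as each group has 1 array. The script for the size rule was checked on simulated data, which gives the rule no error rate. Named genes are the 10 members, listed pathway genes that met the rule, IGF2, INSR, IGFBP1 and the IRS and IGF2BP genes, the 3 nearest patterns, marker genes and the neighbours of IGFBP2, IGFBP3 and IGFBP5. Markers named singly were chosen after their values were seen. Members, lists and rule were chosen with earlier results of these data known. Promoter sequences are from RefSeq (GRCh38.p14), the files name no build. Python 3.11.15, pandas 2.3.3 and numpy 2.4.6 were used. Alternatives changed the probe set, floor, filter, scaling, threshold, comparison and lines used.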

Additional observations from a re-analysis of the deposited data

How the results depend on the processing

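No paired analysis was possible because each subtype has 1 array and the labels give no replicate numbers. Over 15 alternatives, no gap of a named member or pathway gene reversed. The choice of the highest linear mean was made after seeing the data. Of the gap values, 11 fell short of the rule and 6 newly met it, all 6 for IGFBP7. With the threshold of 1 the IGFBP7 gap was the unchanged 1.79, which met only that lower threshold. MMP2 did not reach the floor with the median over probe sets and is not among the 11. The gaps of IGF1 (4.05 to 6.52), IGFBP2 (4.23 to 5.95) and IGFBP3 (5.18 to 6.60) met it wherever they could be computed. IGFBP3 has no probe set left without _s_at and _x_at probe sets, so 1 member was then higher in TCam-2.

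The count of members lower in GCT44 was 1 with the median over probe sets, without _s_at and _x_at probe sets, with spiked-in scaling, with a threshold of 1, and without TCam-2, NT2D1 or GCT27. It was 3 with no floor and 4 against the mean of the other lines. Members higher in NT2D1 were 0 with the median over probe sets, 2 without TCam-2 or without GCT27, and 3 against the mean. Members higher in GCT27 were 1 without TCam-2 or NT2D1 and 2 against the mean. Members lower in GCT27 were 2 against the mean and 1 without GCT44. Members lower in TCam-2 were 1 against the mean and 1 without GCT44. Members higher in GCT44 were 0 with the floor at the 70th percentile.

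Other pathway genes called in either direction, 3 in TCam-2, were 0 with the higher floor, 6 without GCT27 and 5 without GCT44. In NT2D1 (0) they were 1 with no floor, 2 with a threshold of 1, 2 against the mean, 2 without GCT27 and 1 without GCT44. In GCT27 (1) they were 2 with no floor, with spiked-in scaling, with a threshold of 1, without TCam-2 and without GCT44, 4 against the mean and 3 without NT2D1. In GCT44 (2) they were 1 with the higher floor, 5 with a threshold of 1, 7 against the mean, and 4 without TCam-2 or NT2D1.

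All genes called in either direction in TCam-2, NT2D1, GCT27 and GCT44 numbered 333, 114, 138 and 505. They numbered 614, 319, 343 and 1057 with no floor, 203, 51, 74 and 248 with the higher floor, 1157, 715, 749 and 1390 with a threshold of 1, and 842, 517, 580 and 1074 against the mean. Without TCam-2 they were 213 in NT2D1, 306 in GCT27 and 761 in GCT44, without NT2D1 392 in GCT27, without GCT27 563 in TCam-2 and 387 in NT2D1, and without GCT44 584, 268 and 240 in the other lines. With spiked-in scaling 148 genes were higher and 38 lower in GCT27, in place of 90 and 48, and 181 higher and 305 lower in GCT44, in place of 253 and 252, with shifts of the median difference over all genes of 0.31 and -0.26. Fewer lines, a lower threshold, no floor or the mean of the other lines can only add calls by construction. A higher floor can only remove them. For the other settings the cause was not tested.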

Other observations

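Neighbours in the reference gene table were read for IGFBP3 and for IGFBP2 and IGFBP5, which lie beside other IGFBP genes. IGFBP1, the protein-coding gene next to IGFBP3, was below the floor in all 4 lines, with 12.7 units in TCam-2 where IGFBP3 had 9385. On its other side TNS3, a focal adhesion gene, had 7854 units in TCam-2, 4976 in NT2D1, 2875 in GCT44 and 1293 in GCT27. IGFBP2 and IGFBP5 are next to each other, and their levels crossed between GCT27 and TCam-2. In GCT27 IGFBP2 had 4735 units while IGFBP5 was below the floor on the probe set used. In TCam-2 IGFBP2 was near the floor while IGFBP5 had 608 units. The other lines did not differ in this way: in NT2D1 the 2 genes had 4855 and 1084 units, and in GCT44 both were below the floor, at 4.51 and 6.78. The IGFBP5 pattern is on 1 of its 6 probe sets. RPL37A on the far side of IGFBP2 had 36612 to 43592 units in all lines, and TNP1 on the far side of IGFBP5 was below the floor in all of them.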
